A study of Mus musculus with 17 samples.

Results

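The genes described here are 10 melanosome and pigment genes (*Pmel*, *Mlana*, *Tyr*, *Tyrp1*, *Dct*, *Oca2*, *Slc45a2*, *Slc24a5*, *Gpr143* and *Trpm1*), taken by symbol from the 22253 genes of the count table, and all 10 were found. The counts came from 17 RNA-seq libraries of hand-picked retinal pigment epithelium (RPE) cells of *Serpine3*GFP/+ mice at 2 months of age. These mice carry a GFP sequence at the start of *Serpine3* on 1 allele, followed by a transcription end signal, so that cells with *Serpine3* transcription fluoresce and 1 copy of the gene is interrupted in every group. There was no wild-type group. There were 6 libraries of peripheral GFP+ cells (GFP+ RPE, labelled GFP+), 5 of peripheral cells without GFP (peripheral GFP- RPE, labelled ctrl periphery) and 6 of central cells without GFP (central GFP- RPE, labelled ctrl center). Peripheral and central pieces of each eyecup were cut apart before the cells were dissociated, and each library was a pool of 10 to 15 cells per the labels. The methods of the study give a lower range for the pools, and which one holds was not settled here. The labels name 7 mice, 1 of them (mouse 1) with 2 animal numbers, so that its libraries may come from 2 animals. It is counted as 1 mouse here. Mice 1, 2, 4, 5 and 7 gave a library to each group, mouse 3 gave GFP+ cells only and mouse 6 central cells only. The animal numbers fall in 2 runs, mice 1 to 3 and mice 4 to 7.

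Melanin is made inside the melanosome, an organelle related to the lysosome, on fibrils of the protein PMEL. Tyrosinase starts the synthesis from tyrosine, and its relatives TYRP1 and DCT act on later steps, while transporters and channels of the melanosome membrane keep its ions and its pH suited to the enzymes. In RPE cells most melanin is laid down early in life, and the factors MITF and OTX2 are known to drive many of these genes.

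The promoters of the members were read first, because MITF is known to bind the letters CATGTG, most of all when a T precedes them. The RefSeq promoter table for GRCm38.p6, which gives 300 bases from 250 before to 50 after a gene's start, held 7 windows for 6 members, with 2 starts for *Trpm1*. *Pmel*, *Mlana*, *Slc45a2* and *Gpr143* had no entry. CATGTG was searched on both strands, and so was TCATGTG, which contains it. All 7 windows held CATGTG, against 14.2% of the 32851 windows in the table, and 5 of the 7 held TCATGTG, against 3.77% of all windows. The letters CACGTG, searched likewise, were in 1 of the 7, against 7.15% of all windows. The 4 windows printed here are those of *Tyrp1* and *Trpm1*, the members with a window whose GFP+ and central GFP- ranges lay apart, and of *Tyr* and *Dct*, whose ranges overlapped, and the capitals mark TCATGTG or its complement. They lie at chr4:80833963-80834262 on the plus strand (*Tyrp1*), chr7:64153585-64153884 on the plus strand (*Trpm1*, first start), chr7:87493463-87493762 on the minus strand (*Tyr*) and chr14:118052197-118052496 on the minus strand (*Dct*).
Tyrp1: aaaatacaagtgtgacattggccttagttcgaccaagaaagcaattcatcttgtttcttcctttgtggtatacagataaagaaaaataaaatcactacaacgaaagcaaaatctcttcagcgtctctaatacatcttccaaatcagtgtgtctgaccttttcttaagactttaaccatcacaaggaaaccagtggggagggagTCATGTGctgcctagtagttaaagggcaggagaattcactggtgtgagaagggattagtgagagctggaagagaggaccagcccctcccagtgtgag
Trpm1: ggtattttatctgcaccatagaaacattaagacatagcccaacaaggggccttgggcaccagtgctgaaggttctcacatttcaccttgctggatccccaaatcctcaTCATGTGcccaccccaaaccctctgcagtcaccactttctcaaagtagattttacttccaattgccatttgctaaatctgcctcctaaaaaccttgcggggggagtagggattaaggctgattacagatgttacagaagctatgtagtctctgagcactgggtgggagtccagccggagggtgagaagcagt
Tyr: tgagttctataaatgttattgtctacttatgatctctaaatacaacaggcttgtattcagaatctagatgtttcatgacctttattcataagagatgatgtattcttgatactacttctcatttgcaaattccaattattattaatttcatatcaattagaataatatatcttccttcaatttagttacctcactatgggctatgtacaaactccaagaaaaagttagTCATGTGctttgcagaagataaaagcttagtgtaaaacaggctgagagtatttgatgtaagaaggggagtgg
Dct: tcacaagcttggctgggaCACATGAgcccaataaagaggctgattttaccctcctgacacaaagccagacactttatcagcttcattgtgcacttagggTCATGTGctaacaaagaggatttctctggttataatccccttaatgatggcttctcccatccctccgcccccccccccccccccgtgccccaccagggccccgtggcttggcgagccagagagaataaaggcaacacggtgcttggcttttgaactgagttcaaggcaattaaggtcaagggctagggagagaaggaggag
Counted without the T, CATGTG or its complement began 46 bases before the RefSeq start in *Tyrp1*, 141 in *Trpm1*, 21 in *Tyr*, and 232 and 150 in *Dct*. For *Tyrp1* the gene position given below begins further upstream, at chr4:80834123, so that its CATGTG falls inside that span. The windows of *Oca2*, whose ranges overlapped, and of the second *Trpm1* start held CATGTG without the T. *Slc45a2*, also apart, had no window. Among members with a window, those apart and those overlapping thus all held CATGTG, which describes the windows and not binding.

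The libraries held 9896118 to 22467079 counts. Mitochondrially encoded genes took 0.710% to 17.2% of the counts in GFP+ RPE, 12.5% to 30.4% in peripheral GFP- RPE and 13.7% to 47.3% in central GFP- RPE. The part of this difference in the results was not tested. Leaving these genes out kept the same 3 members apart between GFP+ and central GFP- RPE. That step changes only the scaling of each library, and so it cannot show what the difference contributes. Genes with at least 10 counts numbered 9089 to 10231, 7966 to 10543 and 5392 to 10450 in the same order, with the fewest in the central library of mouse 5, and the part of gene detection in the results was not tested. *Serpine3* itself, a serine protease inhibitor family member, followed the labels, with 12.0 ± 6.36 CPM (counts scaled to the size of each library, SD, n = 6) in GFP+ RPE, 0 counts in all 6 central libraries, and 5 counts in 1 of 5 peripheral GFP- libraries with 0 in the others. Of 12 RPE markers, 11 had more than 3 counts in every library, among them *Rpe65*, *Rlbp1* and *Lrat*, whereas *Best1* had at most 2 counts in any library.

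Summed over the 10 members, GFP+ RPE held 1343 to 2280 CPM with a median of 1834, peripheral GFP- RPE 860.0 to 1774 with a median of 1318, and central GFP- RPE 642 to 1213 with a median of 1087. The GFP+ and central ranges did not overlap, with 1343 CPM as the lowest GFP+ and 1213 CPM as the highest central sum. The median gene was also higher in GFP+ than in central GFP- RPE, by 0.41 on log2(CPM + 1). No such sums of other genes are given, so this gap is not read as particular to pigment genes. In bulk pools such as these, fewer cells with a transcript and less transcript per cell cannot be told apart. More than 3 counts were reached by 9 to 10 members in each GFP+ library, 7 to 10 in each peripheral GFP- library and 5 to 8 in each central library.

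**Figure D1:**
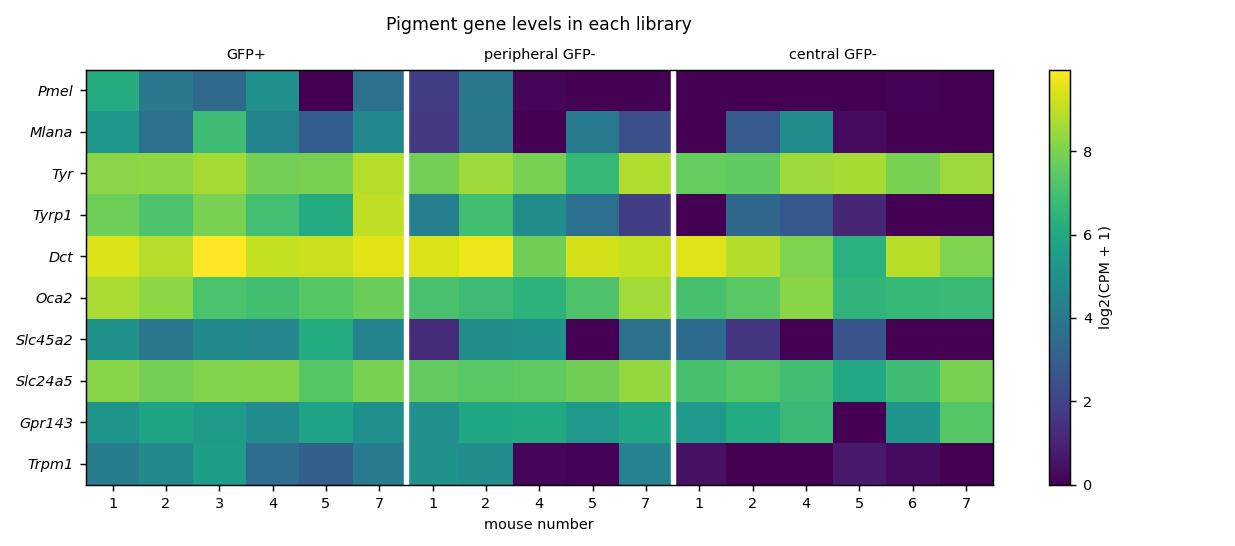
Level of the 10 pigment genes (rows) in the 17 libraries (columns, by mouse number), as log2(CPM + 1) in color, with white lines between the groups. *Dct*, *Tyr*, *Slc24a5* and *Oca2* were high in every library, whereas in the central libraries *Pmel* and *Trpm1* were near 0 and *Tyrp1* reached at most 9.16 CPM.

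Which pigment genes set GFP+ RPE apart from central GFP- RPE was addressed by edgeR's quasi-likelihood test over all genes and by exact permutation of libraries for each member. Of the 9 members that passed the filter on low counts (*Pmel* did not), 0 were called (adjusted p under 0.01 with a log2 fold change beyond 1 either way), where 0.0431% of the 9286 genes tested were called. At an unadjusted p under 0.05 there were 5 of the 9 members (*Tyrp1*, *Trpm1*, *Slc45a2*, *Slc24a5* and *Dct*) and 539 of all genes (5.80%), and 8 of these 9 had the higher fitted level in GFP+ RPE, with a median log2 fold change of 0.84 against 0.00 over all genes. DESeq2 called 3 of 10 members, *Tyrp1*, *Trpm1* and *Pmel*, all higher in GFP+ RPE, where 0.659% of its genes were called higher. Without any model, the GFP+ and central ranges lay apart for 3 members, *Tyrp1*, *Trpm1* and *Slc45a2*, each higher in GFP+ RPE, as for 0.829% of genes past the filter. More than 3 counts were reached in 1 of 6 central libraries by *Trpm1*, in 2 by *Mlana* and in 3 by *Tyrp1* and *Slc45a2*, against all 6 GFP+ libraries. These members thus passed the filter through GFP+ RPE, which favours a higher GFP+ level in advance. The counts of members fitted higher, under p 0.05 or apart are therefore descriptions only. The 3 comparisons share libraries, so their values are given side by side and not as independent results. In all, 30 exact tests of single members were run, 2-sided and unadjusted, and 12 gave p under 0.05. No share of all genes under that limit by the exact test is given here, so the 12 are not read as particular to pigment genes. These tests used log2(CPM + 1), on which the median difference of the 10660 genes past the filter over all libraries was 0.41 between GFP+ and central, 0.04 between GFP+ and peripheral GFP-, and 0.35 between peripheral and central GFP- RPE, and the members are to be read against those values.

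*Pmel* encodes the protein of the melanosome fibrils (chr10:128704195-128720238, whose exons overlap *Cdk2* and *Dgka* on the other strand, so that reads may be shared). In GFP+ RPE it ranged from 0 to 71.4 CPM with a median of 13.4. The peripheral GFP- libraries of mice 1, 2, 4, 5 and 7 held 2.55, 15.5, 0.137, 0 and 0 CPM. In central GFP- RPE only 1 count was found, in mouse 6, over all 6 libraries. Of the GFP+ libraries, 5 of 6 were above every central one and the library of mouse 5 had 0 counts, so that the ranges met. With every central library set to 3 counts, the GFP+ mean of *Pmel* was 71.7 times the central one, and 42.1 times without the GFP+ library of mouse 1, the highest. The exact permutation p was 0.0152 and the adjusted p by DESeq2 7.59e-07, and the edgeR filter had removed the gene. Without the filter edgeR's quasi-likelihood test gave an adjusted p of 0.0144, and over the alternatives it reached 0.125. Against peripheral GFP- RPE the ratio of means was 6.40 (exact permutation p = 0.0736), but it rested on single libraries, being 34.6 without the peripheral library of mouse 2 and 3.76 without the GFP+ library of mouse 1. Between peripheral and central GFP- RPE the exact permutation p was 0.0606. The p values of both comparisons with peripheral GFP- RPE fell below 0.05 without certain single libraries, the first without the GFP+ library of mouse 5 (exact p = 0.0317) or the peripheral library of mouse 2 (exact p = 0.0381), and the second without the peripheral library of mouse 5 or 7 (exact p = 0.0333 for each).

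*Mlana* encodes a small membrane protein that binds PMEL and helps in its maturation (chr19:29697824-29708634). Its GFP+ libraries ranged from 6.78 to 114 CPM with a median of 22.6. Peripheral GFP- RPE gave 2.17, 14.5, 0, 15.8 and 4.43 CPM in mice 1, 2, 4, 5 and 7, and central GFP- RPE ranged from 0 to 28.1 with a median of 0.110. The central level came almost wholly from mice 2 and 4, while 3 of 6 central libraries had no count. The fitted log2 fold change between GFP+ and central was 2.65 ± 1.55 (SE, edgeR's quasi-likelihood test, adjusted p = 1.00), with an exact permutation p of 0.0173. Between GFP+ and peripheral GFP- RPE the exact p was 0.0346 and rose to at most 0.0857 without single libraries, passing 0.05 for 7 of the 11.

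*Tyrp1* showed the widest difference among the enzymes. TYRP1 oxidises an intermediate of eumelanin and steadies tyrosinase (chr4:80834123-80851719). Its GFP+ libraries ranged from 69.6 to 514 CPM with a median of 180. In peripheral GFP- RPE it was at 18.7, 123, 28.9, 11.6 and 2.60 CPM in mice 1, 2, 4, 5 and 7, and in central GFP- RPE it ranged from 0 to 9.16 with a median of 0.552. Every GFP+ library was above every central one, and 5 of 6 were above every peripheral GFP- one, the exception being mouse 5, below the peripheral library of mouse 2.

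Fitted to counts, *Tyrp1* was higher by 6.33 ± 1.22 on the log2 scale in GFP+ than in central GFP- RPE (edgeR's quasi-likelihood test, adjusted p = 0.0533). The adjusted p lay between 0.000545, by DESeq2, and 0.166 over the alternatives, and the exact permutation p was 0.00216, the smallest that 6 against 6 libraries allow. Within the 2 runs of animal numbers the differences of mean log2(CPM + 1) were 5.96 and 6.42, with the ranges apart in both, beside 6.31 over all libraries. Against peripheral GFP- RPE the fitted difference was 2.58 ± 0.74 (adjusted p = 0.556 by edgeR and 0.0463 by DESeq2, exact permutation p = 0.00433), with 2.01 and 3.91 within the runs. Peripheral GFP- RPE was in turn above central GFP- RPE by 3.78 ± 1.67 (edgeR adjusted p = 1.00, exact permutation p = 0.0152), with 3.95 and 2.51 within the runs. In each of the 5 mice with libraries of all groups, *Tyrp1* was lowest in the central, intermediate in the peripheral GFP- and highest in the GFP+ library, the pattern drawn in the plot of libraries joined by mouse.

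**Figure D2:**
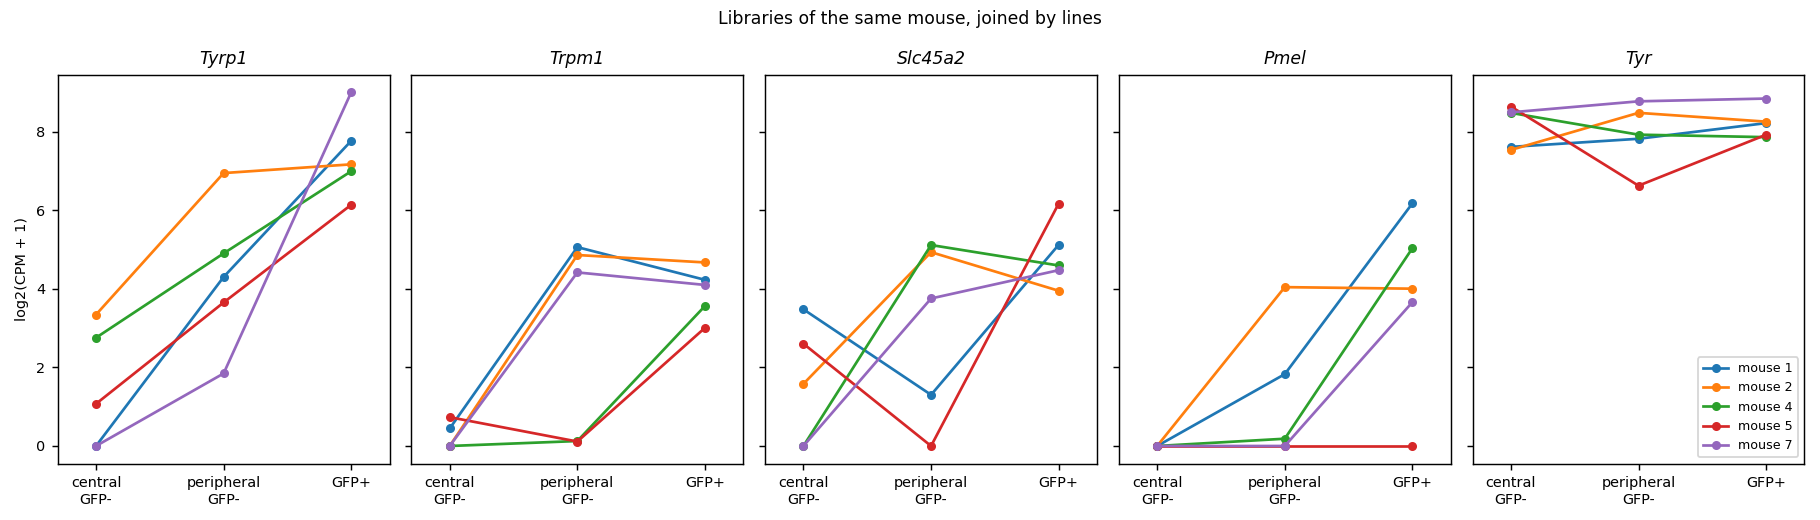
Level of 5 pigment genes as log2(CPM + 1) in the central GFP-, peripheral GFP- and GFP+ libraries of the 5 mice that gave all 3, with a line for each mouse. All 5 lines climb at both steps for *Tyrp1*, whereas those of *Tyr* rise in some mice, fall in others and cross.

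*Tyr* encodes tyrosinase, the first and limiting enzyme of melanin synthesis (chr7:87424771-87493512, minus strand). It ranged from 232 to 459 CPM with a median of 301 in GFP+ RPE and from 185 to 399 with a median of 300.0 in central GFP- RPE, and peripheral GFP- RPE gave 225, 357, 242, 97.9 and 437 in mice 1, 2, 4, 5 and 7. The 3 groups overlapped over most of their range. The fitted log2 fold change was 0.15 ± 0.27 against central and 0.26 ± 0.31 against peripheral GFP- RPE (edgeR's quasi-likelihood test, adjusted p = 1.00 for both), and the exact permutation p values were 0.500 and 0.403. On CPM from raw library totals, without TMM scaling, the GFP+ and central ranges of *Tyr* came apart, with a difference of 0.74 (exact permutation p = 0.00216). On that scale the median of all genes also moved, from 0.41 to 0.78, so that relative to it *Tyr* differed by -0.04.

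*Dct* encodes dopachrome tautomerase, which acts between tyrosinase and the last steps of eumelanin (chr14:118012790-118052244, minus strand). Its GFP+ libraries ranged from 464 to 993 CPM with a median of 624, its central libraries from 81.3 to 703 with a median of 354, and its peripheral GFP- libraries held 676, 835, 224, 629 and 529 CPM. The ranges overlapped, with the lowest central value in mouse 5. The fitted difference between GFP+ and central was 0.84 ± 0.38 (edgeR's quasi-likelihood test, adjusted p = 0.780), and the exact permutation p of 0.0303 passed 0.05 without the GFP+ library of mouse 1, 3 or 7, reaching 0.0714. Against peripheral GFP- RPE the fitted difference was 0.21 ± 0.29 (exact permutation p = 0.502).

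The balance of the enzymes within a library does not depend on the scaling between libraries. For 100 *Tyr* counts, GFP+ libraries held 28.8 to 112 *Tyrp1* counts with a median of 59.2, and central libraries 0 to 4.95 with a median of 0.138. Peripheral GFP- libraries held 8.32, 34.4, 11.9, 11.8 and 0.594 in mice 1, 2, 4, 5 and 7. The ratio was higher in GFP+ than in central (exact permutation p = 0.00216) and peripheral GFP- RPE (exact p = 0.00433), and higher in peripheral than in central GFP- RPE (exact p = 0.0216). For *Dct* to *Tyr* the same comparisons gave exact p values of 0.180, 0.874 and 0.262, with medians of 230, 234 and 134 *Dct* counts per 100 *Tyr* counts in GFP+, peripheral GFP- and central GFP- RPE. For *Tyrp1* to *Dct* they were 0.00216, 0.00649 and 0.0649. These ratios were chosen after the data had been seen.

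**Figure D3:**
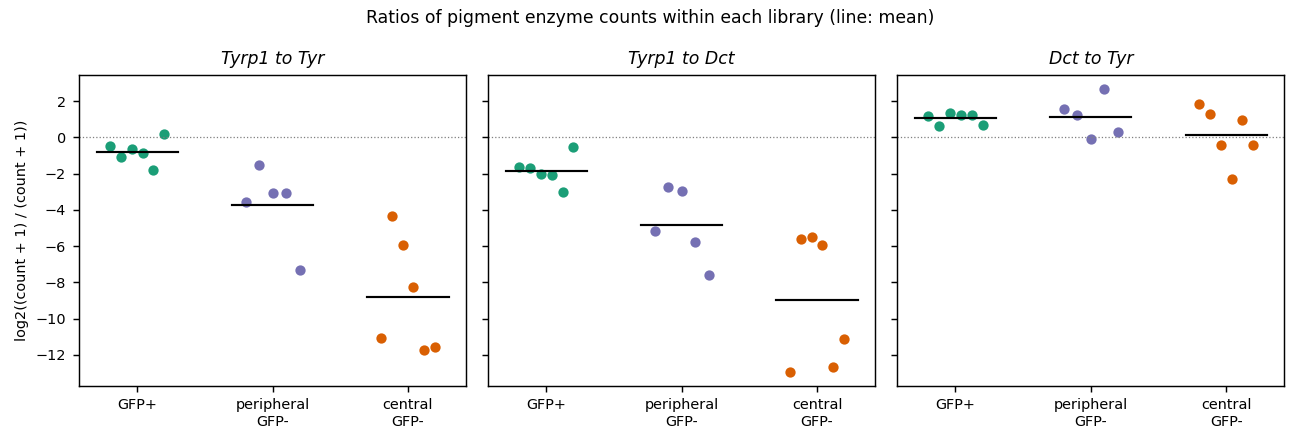
Log2 ratio of the counts of 2 enzyme genes within each library, with 1 added to each count, by group, with points for libraries and a line at the mean. The GFP+ libraries sit above all central ones for both ratios with *Tyrp1*, and the groups overlap for *Dct* to *Tyr*.

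Of the 3 transporters, *Slc45a2* differed between the groups by the most. SLC45A2 helps to keep the melanosome at a pH that tyrosinase needs (chr15:11000721-11029233). It ranged from 14.5 to 71.1 CPM with a median of 24.4 in GFP+ RPE and from 0 to 10.2 with a median of 0.997 in central GFP- RPE. All GFP+ libraries were above all central ones, in both runs of animal numbers. The ratio of means was 11.0, and 22.3 without the central library of mouse 1, the highest there. The fitted log2 fold change was 3.45 ± 1.46 (edgeR's quasi-likelihood test, adjusted p = 0.712, between 0.143 and 1.00 over the alternatives). The exact permutation p was 0.00216, and the within-run differences of mean log2(CPM + 1) were 2.07 and 4.43 beside 3.57 over all. Peripheral GFP- RPE was split, with 1.47, 29.6, 33.7, 0 and 12.5 CPM in mice 1, 2, 4, 5 and 7. It spanned both other groups, and neither comparison with it gave an exact p under 0.05 (0.102 with GFP+ and 0.173 with central), although the first reached 0.0381 without the peripheral library of mouse 2 or of mouse 4.

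*Slc24a5* encodes a potassium-dependent sodium and calcium exchanger of the pigment cell (chr2:125068124-125088677, with exons that overlap *Myef2* on the other strand). GFP+ RPE ranged from 161 to 293 CPM with a median of 258, central GFP- RPE from 64.0 to 243 with a median of 125, and peripheral GFP- RPE gave 190, 168, 181, 221 and 331. Among GFP+ libraries 4 of 6 were above every central one, and in each of the 5 mice the GFP+ library was above the central one. The ratio of means was 1.78 (fitted log2 fold change 0.84 ± 0.30, edgeR's quasi-likelihood test, adjusted p = 0.475), with an exact permutation p of 0.00866. The difference of mean log2(CPM + 1) was 0.91, that is 0.50 above the median of all genes. Peripheral GFP- RPE did not differ detectably from GFP+ RPE (exact permutation p = 0.370), and its exact p of 0.0455 against central GFP- RPE was lost in 9 of the 11 settings that left out a library.

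*Oca2*, which encodes a chloride channel of the melanosome membrane (chr7:56239760-56536518), ranged from 124 to 411 CPM with a median of 189 in GFP+ RPE, from 90.8 to 291 with a median of 118 in central GFP- RPE, and stood at 137, 114, 85.4, 143 and 380 in peripheral GFP- RPE. The groups overlapped, and the exact permutation p values were 0.141 for GFP+ against central, 0.307 for GFP+ against peripheral and 0.732 for peripheral against central. On raw library totals the first was 0.0346, with a difference of 1.17 that is 0.39 above the median of all genes on that scale.

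*Gpr143* encodes a receptor of the melanosome membrane that is known to limit melanosome size (chrX:152781921-152808646). It ranged from 27.1 to 55.4 CPM with a median of 38.5 in GFP+ RPE, from 0 to 162 with a median of 54.4 in central GFP- RPE, and stood at 32.2, 62.5, 65.0, 40.7 and 57.0 in peripheral GFP- RPE. It was the member whose fitted level was lower in GFP+ than in central GFP- RPE, by -0.76 ± 0.82 on the log2 scale (edgeR's quasi-likelihood test, adjusted p = 1.00). The difference of mean log2(CPM + 1) was 0.18 instead (exact permutation p = 0.965), and became -0.84 without the central library of mouse 5, which had 0 counts (exact p = 0.0649).

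*Trpm1* encodes a cation channel found in melanocytes and retinal bipolar cells (chr7:64153835-64269775, with exons that overlap the predicted gene *Gm44722* on the other strand). GFP+ RPE ranged from 7.05 to 45.8 CPM with a median of 16.97, and central GFP- RPE from 0 to 0.663 with a median of 0.109, which amounted to 10 counts in 6 libraries. Peripheral GFP- RPE fell in 2 sets, with 32.4, 28.1 and 20.4 CPM in mice 1, 2 and 7 and 0.0913 and 0.0816 in mice 4 and 5. All GFP+ libraries were above all central ones, and the peripheral GFP- libraries lay at either level.

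Between GFP+ and central GFP- RPE the fitted difference of *Trpm1* was 6.66 ± 1.58 on the log2 scale (edgeR's quasi-likelihood test, adjusted p = 0.0733, between 4.64e-10 by DESeq2 and 0.562 with mouse as a block), with an exact permutation p of 0.00216. With central libraries under 3 counts set to 3 counts the GFP+ mean was 59.8 times the central one. The within-run differences of mean log2(CPM + 1) were 4.59 and 3.30 beside 3.94 over all. Between GFP+ and peripheral GFP- RPE the exact p was 0.327. The edgeR filter removed *Trpm1* between peripheral and central GFP- RPE, where the exact p of 0.0411 was lost in 9 of 11 settings that left out a library and within-run differences were 4.74 and 1.30. DESeq2 gave a log2 fold change of 6.39 ± 1.61 there (SE, adjusted p = 0.0220), which missed the limit for a call. Without the filter edgeR's quasi-likelihood test gave an adjusted p of 0.363, and over the alternatives it reached 0.878.

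**Figure D4:**
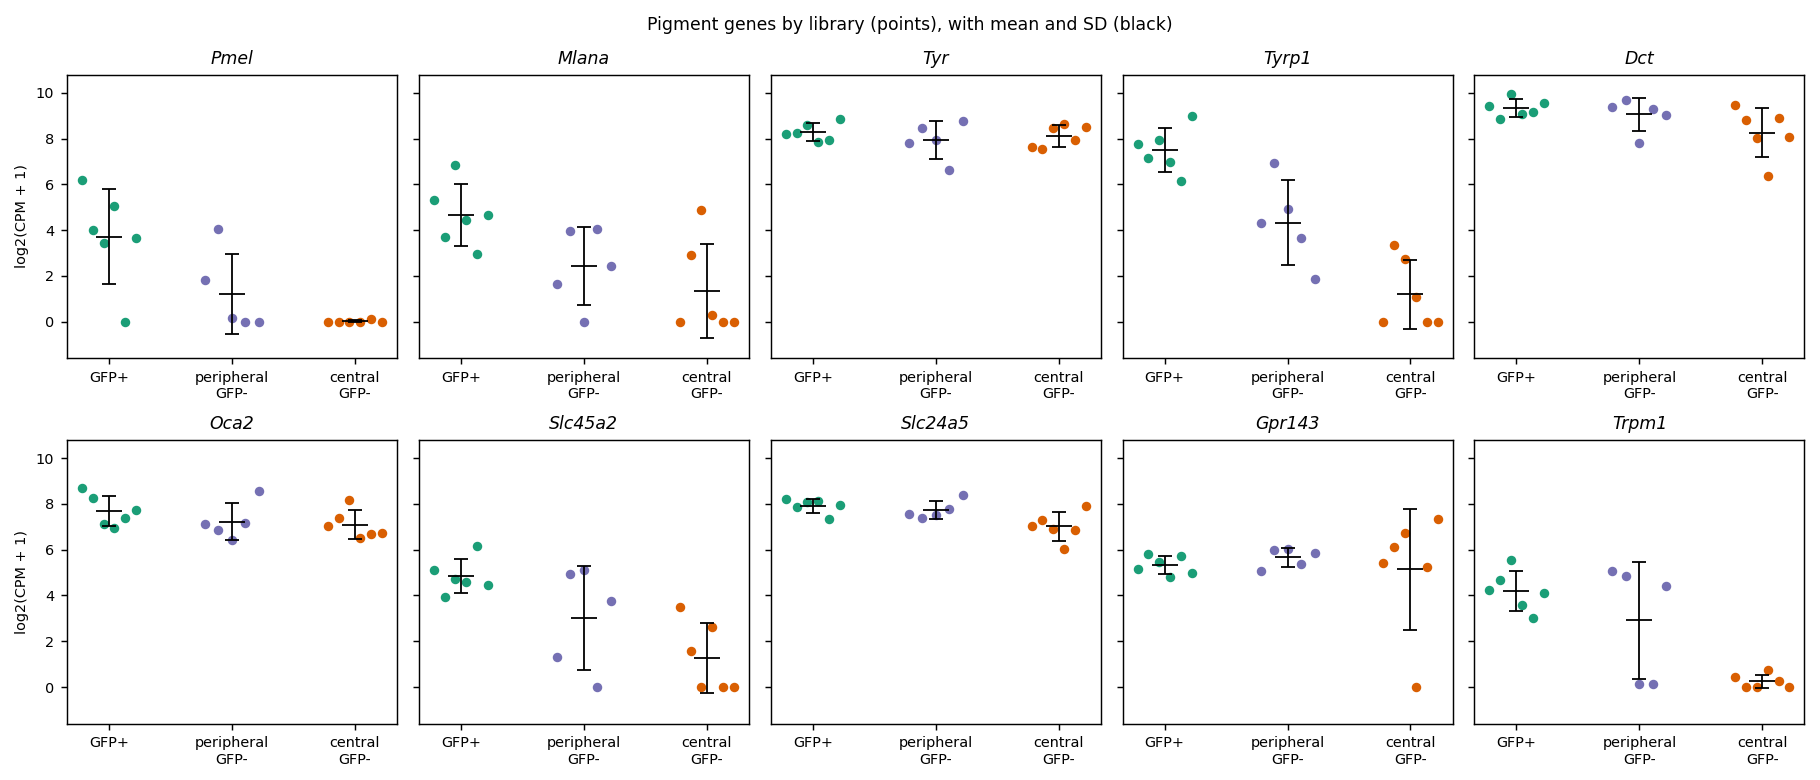
Level of each of the 10 pigment genes as log2(CPM + 1) in every library (points) of the 3 groups, with mean and SD in black. The GFP+ and central points do not overlap for *Tyrp1*, *Slc45a2* and *Trpm1*, and the peripheral GFP- points of *Trpm1* and *Slc45a2* spread over both levels.

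Over the whole list, GFP+ and peripheral GFP- RPE were separated less. edgeR's quasi-likelihood test called 0 of 10 members (0.0396% of 10102 genes), DESeq2 called 0 (0.571% of its genes), and 1 member was under an unadjusted p of 0.05 by edgeR (5.58% of all genes) and 2 by DESeq2 (11.0%). The fitted value was higher in GFP+ RPE for 9 of 10, with a median log2 fold change of 0.38 against 0.01 over all genes, and 0 members had ranges apart, where 0.683% of genes past the filter lay apart and higher. Without the GFP+ library of mouse 5, or without the peripheral library of mouse 2, the ranges of 1 member, *Tyrp1*, came apart. Between peripheral and central GFP- RPE edgeR called 0 of 8 members and 0% of 9535 genes, 1 member was under an unadjusted p of 0.05 by edgeR (2.70% of all genes) and 3 by DESeq2 (7.68%), which called 0 of 10 (0.258% of its genes). There the fitted value was higher at the periphery for 6 of 8, and 0 members had ranges apart (0.535% of genes apart and higher). Without the peripheral library of mouse 7 the ranges of *Tyrp1* came apart, and without the central library of mouse 7 those of *Slc24a5*. For none of these settings without a library is the share of all genes apart given.

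**Figure D5:**
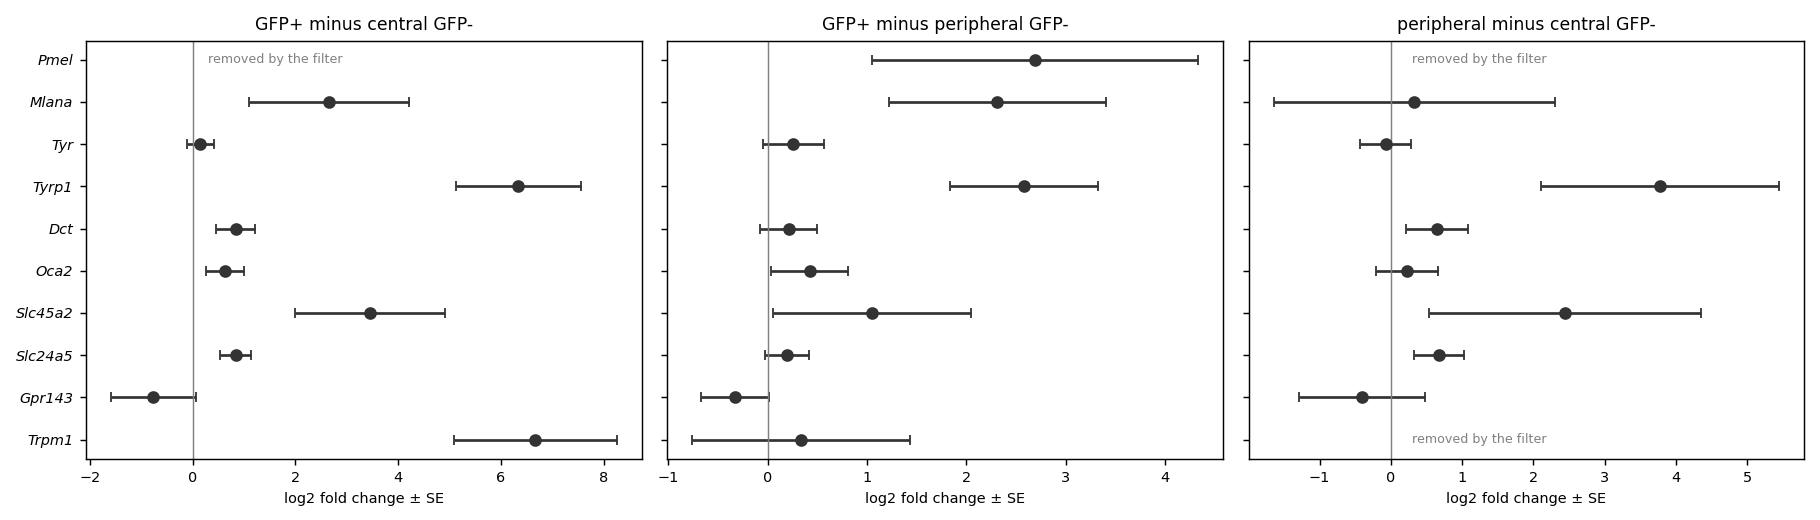
Log2 fold change with its SE from edgeR's quasi-likelihood test for each pigment gene in the 3 comparisons (panels), with the members that the filter on low counts removed named as such. *Tyrp1* and *Trpm1* stand at 6.33 and 6.66 for GFP+ minus central, and no member was called in any panel.

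Levels of different genes were compared per kilobase of annotated exon. In GFP+ RPE the order of mean CPM per kilobase was *Dct* (113), *Slc24a5* (106), *Tyrp1* (77.7), *Oca2* (57.2), *Tyr* (45.1), *Mlana* (34.2), *Gpr143* (20.3), *Slc45a2* (10.6), *Pmel* (10.2) and *Trpm1* (1.38). Neighbours in this order had overlapping ranges down to *Pmel*, whereas *Trpm1*, with 0.478 to 3.10, overlapped *Pmel* only through the GFP+ library of mouse 5 that had no *Pmel* count. In central GFP- RPE the order opened with *Dct* (63.0), *Slc24a5* (59.5), *Tyr* (40.8), *Oca2* (37.3) and *Gpr143* (34.6), followed by *Mlana* (5.50), *Slc45a2* (0.963), *Tyrp1* (0.944), *Trpm1* (0.014) and *Pmel* (0.0053). In peripheral GFP- RPE it was *Dct* (98.1), *Slc24a5* (93.6), *Oca2* (43.4), *Tyr* (38.3), *Gpr143* (25.8), *Tyrp1* (13.0), *Mlana* (6.97), *Slc45a2* (5.18), *Pmel* (1.59) and *Trpm1* (1.10). *Tyrp1* thus had rank 3 in GFP+, rank 6 in peripheral GFP- and rank 8 in central GFP- RPE. The exon length of *Trpm1*, 14746 bases, joins all annotated isoforms, and its level per kilobase would be higher over a shorter isoform.

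The genes whose log2(CPM + 1) followed *Tyrp1* most closely over the 17 libraries, among 10659 compared, were *Cxxc5* (Pearson's r 0.93), *Htr3a* (0.92), *Ecrg4* (0.89), *Zfp930* (0.87) and *Upk3b* (0.87). The libraries share groups and mice, and so these values describe a common pattern over the groups. *Htr3a*, a serotonin-gated ion channel subunit, stood at 536 ± 176 CPM in GFP+, 85.1 ± 33.8 in peripheral GFP- and 11.3 ± 17.6 in central GFP- RPE (SD, n = 6, 5 and 6). Among the other members the likeness to *Tyrp1* was 0.80 for *Pmel*, 0.77 for *Mlana*, 0.71 for *Trpm1*, 0.68 for *Slc45a2*, 0.52 for *Slc24a5*, 0.49 for *Dct*, 0.31 for *Oca2*, 0.17 for *Tyr* and 0.07 for *Gpr143*. Most like *Tyr* were *Tmem251* (0.84), *Gm49909* (0.83), *Fth1* (0.81), *Fundc1* (0.81) and *Myl12b* (0.80), and none of them is on the pigment lists used here.

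Other genes of the melanosome were read in 6 lists, and edgeR called 0 genes of them in any comparison. Between GFP+ and central GFP- RPE, 12 of 22 tested genes of the complexes that carry cargo to the melanosome were fitted higher in GFP+ RPE, with a median log2 fold change of 0.13. The same counts were 5 of 6 for melanosome transport and motors (median 0.60), 4 of 6 for ion and copper handling (median 0.76), 4 of 7 for other matrix and membrane proteins (median 0.04), 5 of 8 for pigment cell transcription factors (median 0.10) and 2 of 5 for pigment signalling (median -0.20), where the median of all genes was 0.00. DESeq2 called 1 gene of the motors, *Rab17*, a small GTPase, and 1 of the matrix and membrane proteins, *Gpnmb*, both higher in GFP+ RPE, that is 2 of the 59 genes it tested in the 6 lists, where 0.659% of all its genes were called higher. *Rab17* stood at 9.58 ± 11.4 CPM in GFP+ RPE, with 0 counts in all central libraries (DESeq2 adjusted p = 0.000804). It passed 3 counts in 4 of 6 GFP+ libraries and in 3 of 5 peripheral GFP- libraries, which held 1.87 ± 2.27 CPM.

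*Gpnmb*, the closest relative of *Pmel*, was the 1 gene of these lists whose ranges lay apart between GFP+ and central GFP- RPE. That is 1 of 54 listed genes past the filter, where 0.829% of all genes past it lay apart and higher. *Gpnmb* ranged from 134 to 755 CPM with a median of 206 in GFP+ RPE and from 0.117 to 37.6 with a median of 13.6 in central GFP- RPE. The peripheral GFP- libraries held 167, 151, 41.6, 20.2 and 51.8 in mice 1, 2, 4, 5 and 7. All GFP+ libraries were above all central ones, and 5 of 6 above all peripheral GFP- ones. The fitted log2 fold change against central was 4.26 ± 0.91 (edgeR's quasi-likelihood test, adjusted p = 0.0729, between 0.00205 by DESeq2 and 0.207 over the alternatives, exact permutation p = 0.00216), with 4.26 and 4.95 on log2(CPM + 1) within the runs. In the 5 mice with all groups, *Gpnmb* was above the central library in the peripheral GFP- one and above that in the GFP+ one, as *Tyrp1* was. In the other comparisons the genes of these lists with ranges apart were *Vps41*, a subunit of a vesicle tethering complex, higher in GFP+ than in peripheral GFP- RPE (139 ± 51.9 against 65.5 ± 20.7 CPM, SD, n = 6 and 5), and *Slc36a1*, an amino acid transporter, lower there (0.0127 ± 0.0311 against 1.87 ± 2.70 CPM), which the filter had removed. *Vps41* was 1 of 57 listed genes past that filter, where 0.683% of all genes past it lay apart and higher. *Slc36a1* had at most 1 count in any GFP+ library and as few as 1 count in a peripheral GFP- library. Its ranges thus lay apart only through the scaling, within counting error. No share of all genes apart and lower is given here.

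No difference was detected in 2 factors known to drive pigment genes. *Mitf* stood at 74.6 ± 22.1 CPM in GFP+, 69.3 ± 33.8 in peripheral GFP- and 79.6 ± 50.3 in central GFP- RPE (SD, n = 6, 5 and 6), with a fitted log2 fold change of -0.09 ± 0.51 between GFP+ and central (edgeR's quasi-likelihood test, adjusted p = 1.00, exact permutation p = 0.773). *Otx2* stood at 650.0 ± 131, 587 ± 76.6 and 592 ± 94.8 CPM, with a fitted difference of 0.14 ± 0.21 (edgeR adjusted p = 1.00, exact permutation p = 0.416). The ranges of both overlapped between all groups.

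Markers of other cells that could carry pigment genes were read beside these results. The 6 melanocyte markers summed to 241 to 453 CPM in GFP+, 232 to 537 in peripheral GFP- and 281 to 603 in central GFP- RPE, and the ranges overlapped. *Sox10* (44.1 to 72.4 CPM in GFP+ and 33.9 to 122 in central GFP- RPE) and *Sox9* were found in every library, *Kit* in some, *Erbb3* had at most 1 count, and *Mc1r* was at 3.47 ± 2.52 CPM in GFP+ against 20.6 ± 25.0 in central GFP- RPE (SD, n = 6 each, adjusted p = 0.757 by edgeR's quasi-likelihood test and 0.0367 by DESeq2, exact permutation p = 0.0130). *Ednrb*, at 0 to 5 counts in GFP+ and 1 to 62 in central libraries, had an adjusted p of 0.0454 by DESeq2 (exact permutation p = 0.0260), and neither gene passed the limit for a call. Most of each sum was *Sox9*, at 264 ± 98.5 CPM in GFP+ and 319.7 ± 67.7 in central GFP- RPE. *Sox9* is also on the list of pigment cell transcription factors used here, so these sums do not measure melanocytes alone. Of the 7 ciliary and iris markers, *Otx1*, *Wfdc1* and *Zic2* had at most 1 count in any library, and the list summed to 154 to 546 CPM in GFP+, 112 to 237 in peripheral GFP- and 18.6 to 343 in central GFP- RPE, with *Acta2* at 149 to 546, 105 to 236 and 0.221 to 343 CPM. DESeq2 called *Opn4* of this list higher in GFP+ than in central GFP- RPE (6.84 ± 7.31 against 0.0241 ± 0.0591 CPM, adjusted p = 0.000809), and the part of these cells in the results was not tested. In peripheral GFP- RPE *Opn4* stood at 2.86 ± 3.49 CPM, with more than 3 counts in 3 of 5 libraries. Photoreceptor, endothelial and choroid stroma markers summed to at most 25.5, 25.3 and 2.43 CPM in any library. Among macrophage markers *Cx3cr1* and *Aif1* had at most 2 counts and *C1qa* 0, *Ptprc* passed 3 counts in 2 peripheral GFP- libraries, and *Csf1r* was found in all libraries at 36.2 to 142 CPM. The Müller glia list was held by *Glul*, *Apoe* and *Clu*, with *Aqp4* at 2 counts or fewer. Of the RPE list, *Mertk*, the receptor for engulfing outer segments, was lower in peripheral than in central GFP- RPE with the ranges apart (66.1 ± 12.0 against 127 ± 37.9 CPM, SD, n = 5 and 6, edgeR adjusted p = 1.00), and 0 of 12 RPE markers were called in any comparison. The share of all genes apart and lower in that comparison is not given.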

How the data were processed

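Counts of 17 libraries were analysed (SMART-Seq mRNA LP kit, polyA RNA). The authors deposited whole-number counts per gene symbol without normalization, and the submitters' processing notes list fastp, Salmon and GRCm38.p6 with no order or settings. If Salmon made the counts they are rounded estimates, the use of strand is not given in the sources used here, and overlapping genes may share reads. All 17 columns were matched to samples by library name, with 0 left unused. Totals were 9896118 to 22467079 counts, in which 0 counts allow up to 3, covering counting error only, since no molecular identifiers are described. Gene positions and exon lengths are those of GENCODE M21, found for 21853 of 22253 symbols (98.2%).

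CPM values used TMM scaling over all 17 libraries. Groups came from the labels, and the libraries of 2 groups at a time were fitted in edgeR 4.0.16 under R 4.3.3, with the default filter, TMM, the quasi-likelihood test and Benjamini-Hochberg adjustment over all genes. DESeq2 (version 1.42.0) was the alternative test, as the study's methods name it without its design. Single genes were tested by 2-sided exact permutation of libraries on log2(CPM + 1), and levels are mean ± SD. The p values measure the spread between pools, and most mice gave a pool to each group. Same-numbered libraries carry the same mouse label and so pair the samples, less surely for mouse 1 with its 2 animal numbers. The deviations of the 15 pairs from their group means correlated at -0.02 to 0.09 only. Fits with mouse as a block used only mice with both groups. Of all library pairs, none held identical values. Other filters, scalings and pseudocounts, runs of animal numbers, and each library left out were tried. Scripts were tested on simulated data.

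Named were all members, genes of the lists that were called or had ranges apart, the first markers of each cell type, and the 5 genes most like *Tyrp1* and *Tyr*. *Rab17*, *Opn4*, *Mc1r*, *Ednrb* and other markers named beyond this were chosen after their values were seen. The members and lists were chosen with earlier results of these data known. Some results for single genes are left out.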

Additional observations from a re-analysis of the deposited data

Results flagged for a closer look

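In 30 sets of values, a member in a group each, the highest or lowest library was checked for a gap to the others that Dixon's test marks, which chance gives in about 1 in 20 sets, and 2 were marked. *Gpr143* had 0 counts in the central GFP- library of mouse 5, while the next lowest central library held 511 counts (37.0 CPM), a gap of 0.714 of the range on the log2 scale. *Pmel* had 1 count in the central library of mouse 6 and 0 in the other 5, which makes the gap 1 of the range by construction.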

How the results depend on the processing

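Members called were 0 under every edgeR alternative in all 3 comparisons, and 3 under DESeq2 for GFP+ against central GFP- RPE. Over all genes DESeq2 called 202, 67 and 29 where edgeR called 4, 4 and 0. With mouse as a replicate block edgeR called 60, 0 and 0, and 58 of the 60 were lower in GFP+ RPE. This paired fit, which drops mice without both groups, called 0 members in each comparison, and sign flips over the 5 mice gave at best 0.0625, the smallest possible. Without single libraries, members with ranges apart were 3 to 4 for GFP+ against central, 0 to 1 for GFP+ against peripheral GFP- and 0 to 1 for peripheral against central GFP- RPE, where CPM on raw totals also gave 1, *Slc24a5*. The share of all genes apart under these settings is not given, so these counts are not read as particular to the members. Of the exact tests, 29 alternatives passed out of p under 0.05 and 9 came under it. Signs turned for small differences, and the cause was not tested. For GFP+ against central, the *Gpr143* difference was -0.23 at a pseudocount of 10 and -0.84 to 0.63 without single libraries. For GFP+ against peripheral GFP- RPE, leaving out single libraries gave fitted values of -0.073 to 0.77 for *Trpm1* and differences of -0.033 to 0.44 for *Dct*. For peripheral against central GFP- RPE, the *Tyr* fitted value was 0.029 with no filter and 0.0019 with the animal number run in the model, its difference was 0.21 on raw totals, and the *Gpr143* fitted value was 0.092 under the replicate block. There, without single libraries, fitted values were -0.31 to 0.15 for *Tyr*, -0.12 to 2.38 for *Mlana*, -0.30 to 0.53 for *Oca2* and -0.64 to 0.043 for *Gpr143*, and differences were -0.40 to 0.13 for *Tyr*, -0.20 to 0.35 for *Oca2* and -0.50 to 0.97 for *Gpr143*. Low counts limit *Pmel*, *Trpm1*, *Mlana*, *Tyrp1* and *Slc45a2* in central GFP- RPE, where 3 to 5 of 6 libraries had 0 counts.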
